A study of Mus musculus with 2 samples.

Results

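The metallothionein genes Mt1 and Mt2 were followed in 3 populations sorted from the small intestinal epithelium of mice, measured on 2 arrays with a dye for each sample. They were taken by gene symbol from the platform's probe annotation, which gave 1 probe for each (whose sequence was not checked), so the 2 genes stand for 2 of 23474 probes and 2 of 16390 named genes. The pair was picked from the measured values themselves, for the high Mt2 signal in one population, so its ratios are given as a description with no test. All mice carried Atoh1-crePGR, Lgr5-EGFP-IRES-creERT2 and also Rosa26-tdTomato, so every population, the reference included, came from animals with all 3 alleles. In them EGFP marks cells that express the stem cell receptor gene Lgr5, and RU486, given intraperitoneally on 5 consecutive days, activates the Cre driven by Atoh1, the transcription factor of the secretory lineage. The tdTomato label then stays in those cells and their descendants. Cells were sorted 20 days after recombination, from a pool of 4 mice, and no age is stated in the sources used here. EGFP-only cells (Lgr5 cells without a recorded Atoh1 history) carried Cy5 on both arrays. Double-positive cells (EGFP and tdTomato) carried Cy3 on the first array and tdTomato-only cells carried Cy3 on the second. Each population is 1 biological replicate and no dye swap was made. No value therefore has a replicate error, no test was possible, and genes are counted as different at 2-fold or more.

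Metallothioneins are small, cysteine-rich proteins that bind zinc and copper ions. Their genes are switched on by zinc and cadmium through the transcription factor MTF1, which binds short metal response elements upstream of them, and also by glucocorticoids and oxidative stress. In the mouse Mt1 and Mt2 lie next to each other and are widely expressed, Mt3 is known from brain and Mt4 from stratified squamous epithelium. In the small intestine metallothionein is known from enterocytes exposed to dietary zinc and from Paneth cells, whose granules hold zinc.

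The 250 bases before the annotated start of Mt2 and of Mt1 are shown because both genes are known metal-responsive neighbours and their array values differed. The sequences are from RefSeq, build GRCm38.p6, written 5′ to 3′ in lower case, and capitals mark metal response elements, searched on both strands as TGCACNC or TGCGCNC.
Mt2, chr8:94172368-94172617, plus strand: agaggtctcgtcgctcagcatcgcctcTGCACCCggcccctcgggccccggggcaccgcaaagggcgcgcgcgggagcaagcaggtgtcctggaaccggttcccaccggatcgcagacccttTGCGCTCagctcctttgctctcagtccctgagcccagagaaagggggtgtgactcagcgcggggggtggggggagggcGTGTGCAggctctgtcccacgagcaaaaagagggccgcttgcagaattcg
Mt1, chr8:94178839-94179088, plus strand: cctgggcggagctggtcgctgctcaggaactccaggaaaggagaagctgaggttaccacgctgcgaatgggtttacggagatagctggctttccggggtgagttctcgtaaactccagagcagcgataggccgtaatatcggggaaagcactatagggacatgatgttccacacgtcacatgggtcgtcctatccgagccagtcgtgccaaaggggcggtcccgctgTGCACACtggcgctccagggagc
The Mt2 stretch held 3 matches, which did not overlap, and the Mt1 stretch 1. Of 32851 promoter stretches of this length in the table, which holds several for some genes, 21.4% had at least 1 match and 1.26% at least 3. The Mt2 stretch also held 1 match to the antioxidant response element TGACNNNGC, present in 10.2% of all stretches, and that of Mt1 held none. Neither held the E-box CACGTG (6.02% of stretches), nor the palindromic glucocorticoid response element (0.00913%). The stretches are placed on the start that the table gives, which was not checked against the start used in these cells. Sequence outside them, including the bases after that start, was not searched. The matches therefore describe these stretches and not a difference between the whole promoters of the genes.

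Mt2 was far brighter in double-positive cells than in the other populations. Its spot median, in scanner units without background subtraction, was 10275 for double-positive and 2344 for EGFP-only cells where these shared an array. It was 2357 for tdTomato-only and 2197 for EGFP-only cells on the other array. One channel thus stood apart, and the other 3 lay close together. After correction of the dye effect by loess, the log2 ratio of double-positive over EGFP-only cells was 3.07, or 8.40-fold. That of tdTomato-only over EGFP-only cells was 0.76, or 1.70-fold and short of the 2-fold mark. The difference between the arrays put Mt2 4.95-fold lower in tdTomato-only than in double-positive cells, a log2 value of −2.31.

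Mt1 did not show this pattern. Its spot median was 4687 for EGFP-only and 2381 for double-positive cells on their shared array, and 4719 for EGFP-only and 2691 for tdTomato-only cells on the other. Both Cy3 channels were dimmer than both Cy5 channels, and the 2 Cy3 populations were close to each other. The normalized log2 ratio was −0.13 for double-positive and −0.08 for tdTomato-only cells against EGFP-only cells, and 0.05 between the tdTomato-only and double-positive populations. The first of these stayed below 0 under all 7 processing settings, between −0.93 and −0.04. The second turned to 0.03 with a smaller background offset, and the last to −0.01 in the authors' deposited ratios. Mt2 minus Mt1 therefore came to 3.20 on the log2 scale in double-positive cells and 0.84 in tdTomato-only cells.

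**Figure D1:**
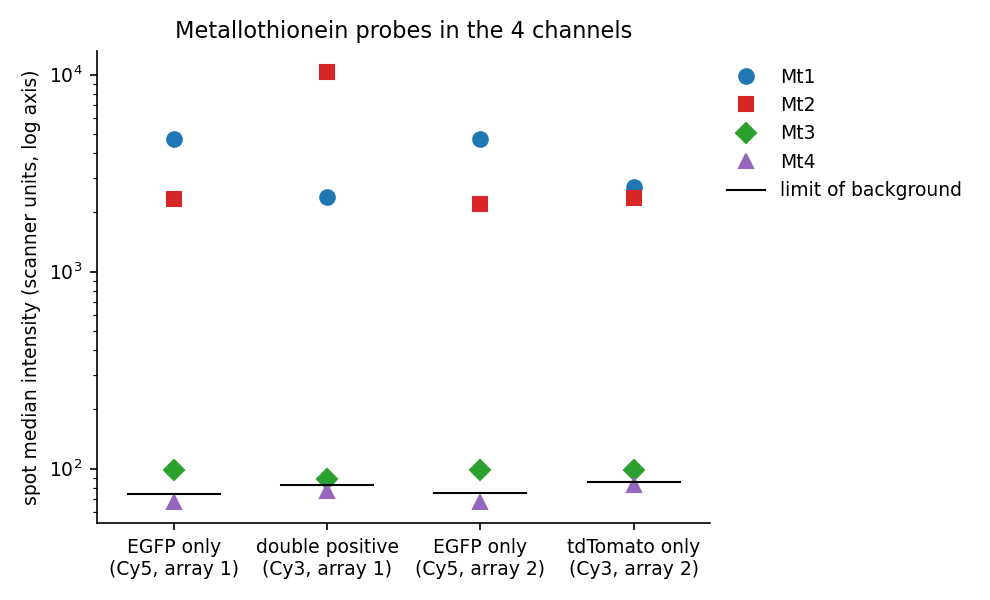
Spot median intensity, in scanner units on a log axis, of the 4 metallothionein probes in each channel, where array 1 is the double-positive and array 2 the tdTomato-only array; black bars mark the limit of background. Mt2 stands at 10275 in the double-positive channel and between 2197 and 2357 in the other 3, while Mt1 lies between 2381 and 4719.

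The EGFP-only RNA was measured on both arrays, which gives the only repeat. On the log2 scale, after loess and scaling between arrays, its second level differed from the first by 0.06 for Mt1 and by −0.01 for Mt2. Over 15640 probes this difference had an SD of 0.083, which describes technical spread only, and no source used here says whether 1 labelled extract served both arrays. The step between double-positive and tdTomato-only cells can also be read within Cy3 alone. There Mt2 was 4.36 times brighter in double-positive cells without any normalization, Mt1 0.885 times and the median probe 0.978 times. The 4 probe spots next to that of Mt2 by column and row had log2 ratios from −0.41 to 0.02 on the double-positive array. These spots were dim, at most 191 in Cy3 against 10275 for Mt2, and a local effect on the Mt2 spot was not tested.

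The size of the ratios against EGFP-only cells depended on the dye correction, and the contrast between Mt1 and Mt2 did so much less. Before loess the log2 ratios in double-positive cells were 2.14 for Mt2 and −0.99 for Mt1, and loess added 0.93 and 0.86. In tdTomato-only cells they were 0.10 and −0.82 before loess, and 0.67 and 0.74 were added. Across the 7 settings the double-positive ratio of Mt2 ran from 2.20 to 3.19, past 2-fold in each, and the tdTomato-only ratio from 0.10 to 0.86, within 2-fold in each. In the authors' deposited table the log2 ratios were 2.65 and 0.40 for Mt2 and −0.52 and −0.53 for Mt1, for double-positive and tdTomato-only cells in that order. A dye effect particular to a probe cannot be told apart from a population difference in the ratios against EGFP-only cells, because that population always carried Cy5.

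**Figure D2:**
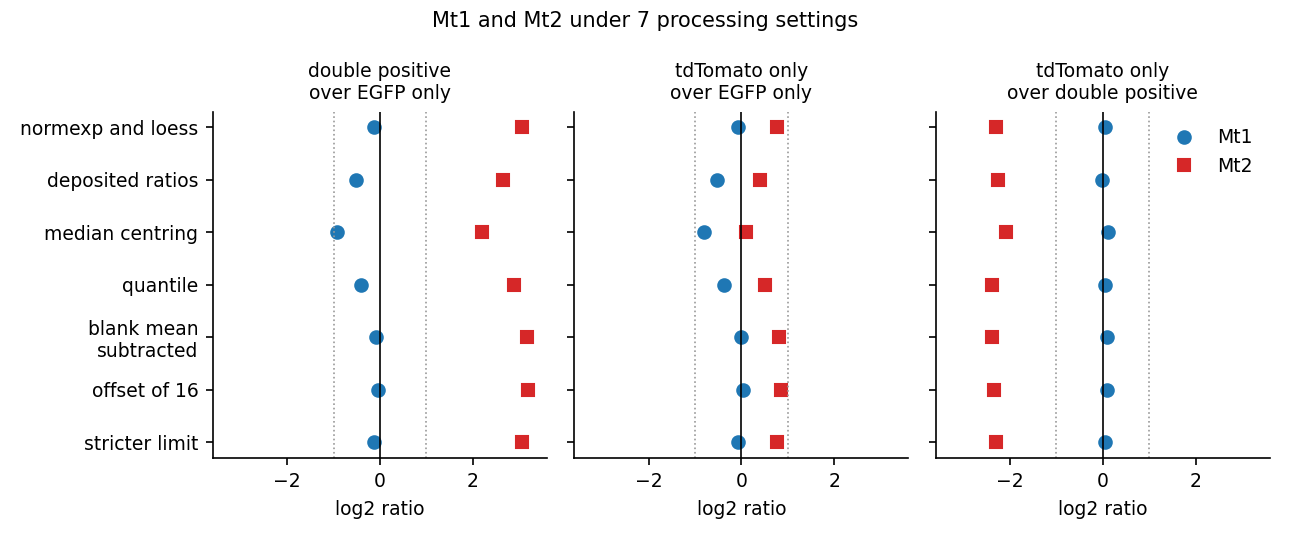
Log2 ratios of Mt1 (circles) and Mt2 (squares) in the 3 comparisons under each of 7 processing settings; dotted lines mark 2-fold. Mt2 stays past 2-fold in the first and last panels and within 2-fold in the middle panel, where it runs from 0.10 to 0.86.

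Against all genes above background in both channels, Mt2 lay at the edge of the distribution in double-positive cells. Of 11774 genes, 5.44% were at least 2-fold apart and 5.10% at least 2-fold higher in that population, and 68 genes had a higher ratio than Mt2. In the tdTomato-only comparison 7.34% of 11381 genes were at least 2-fold apart and 6.15% at least 2-fold higher, Mt2 was not among them, and 992 genes had a higher ratio. Between tdTomato-only and double-positive cells only 0.274% of 11311 genes were at least 2-fold lower. Mt2 was among them, and 3 genes had a lower value: Acsl6 (−3.61), Lim2 (−2.49) and Pax9 (−2.36), which were named after their values were seen. Mt2 was picked for this signal, so its rank describes the choice. Mt1 lay inside the distribution, with 8095 genes above it in the first comparison and 6823 in the second.

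Few genes had a pattern like that of Mt2. Likeness was measured as the distance between genes over both log2 ratios against EGFP-only cells, among 11311 genes above background in all 4 channels. Nearest were Dnajc18 at a distance of 0.19, 3110009E18Rik at 0.33, Grin2d at 0.54, Pax9 at 0.62 and Cd7 at 0.69. Dnajc18 encodes a DnaJ-domain protein, Grin2d a glutamate receptor subunit, Pax9 a developmental transcription factor and Cd7 a surface protein of lymphocytes. Their log2 ratios in double-positive cells ran from 2.55 for Grin2d to 3.53 for Pax9, and in tdTomato-only cells from 0.63 for Grin2d to 1.38 for Cd7. Within a distance of 0.5 there were 2 genes for Mt2 and 7282 for Mt1. Mt2 was picked for its high value in double-positive cells, so the small number of genes near it describes that choice. The 5 nearest to Mt1, Ccdc162, Aoc3, Kdsr, Cela2a and Olfr855, were all within 0.01 of it and carry little information in so dense a region. Mt1 and Mt2 themselves were 3.31 apart.

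**Figure D3:**
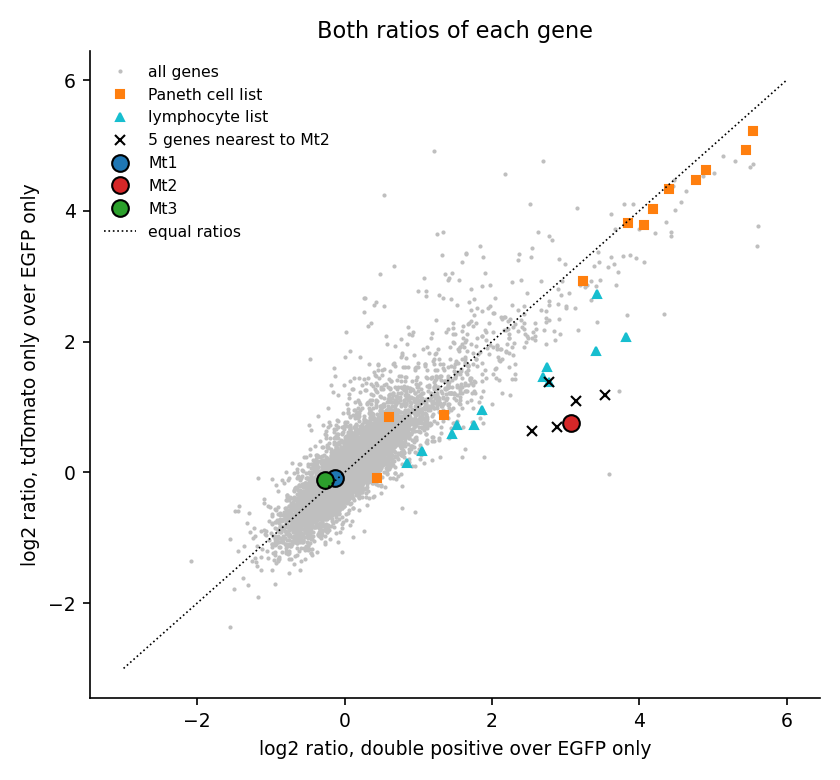
Each point is a gene, with the log2 ratio of double-positive (x axis) and tdTomato-only cells (y axis) over EGFP-only cells; coloured points mark Mt1, Mt2, Mt3 and the Paneth cell and lymphocyte lists, and crosses the 5 genes nearest to Mt2. Mt2 lies far below the line of equal ratios at 3.07 and 0.76, while Mt1 lies near the centre at −0.13 and −0.08.

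The other metallothionein genes were dim. The Mt3 spot lay between 89.4 and 98.8 in all 4 channels, just above limits of background of 74.1 to 85.4. Its log2 ratio was −0.26 in double-positive and −0.12 in tdTomato-only cells, both below 0 under all 7 settings and the first as low as −1.06 in one of them. Mt4 was not above background in any channel and has no ratio. Of the 4 metallothionein genes, 3 were thus measured and Mt2 alone was past 2-fold in any comparison with the loess-corrected values.

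The genes around the cluster on chromosome 8 did not share the pattern of Mt2. In chromosomal order Mt2 lies between Mt3 and Mt1, and of the 5 protein-coding genes on each side of the cluster 8 in all had a ratio. Herpud1, which encodes an endoplasmic reticulum stress protein, was past 2-fold at 1.74 in double-positive and 1.65 in tdTomato-only cells, with a difference of −0.09 between them. Nup93, a nuclear pore gene next to Mt1, had −0.66 and −0.95. The other 6 (Gnao1, Nudt21, Ogfod1, Bbs2, Nlrc5 and Cpne2) lay between −0.23 and 0.12 in double-positive cells.

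**Figure D4:**
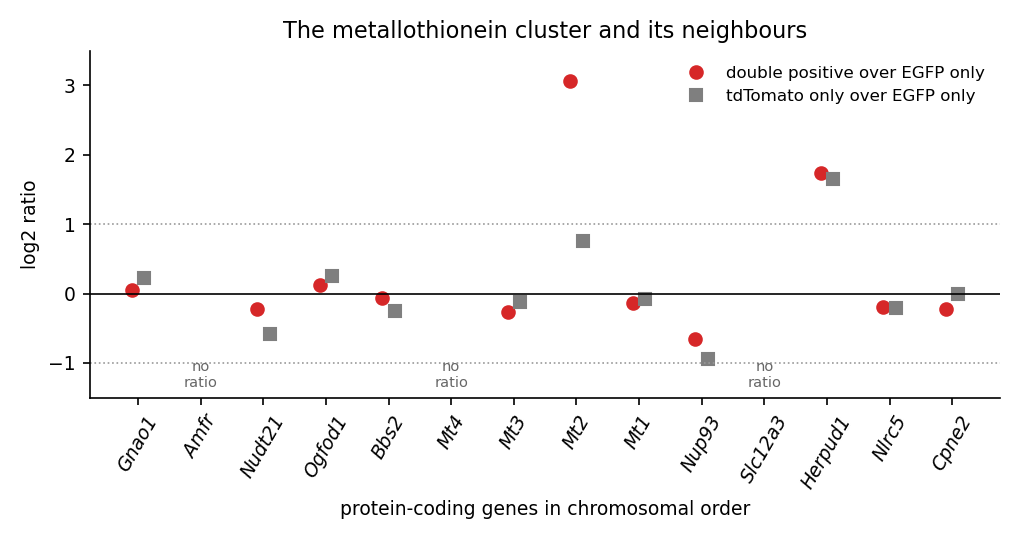
Log2 ratios over EGFP-only cells of the protein-coding genes around the metallothionein cluster in chromosomal order, for double-positive (circles) and tdTomato-only cells (squares); dotted lines mark 2-fold. Mt2, at 3.07, and Herpud1, at 1.74, are the only genes past 2-fold in double-positive cells.

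Most zinc transporter genes stayed within 2-fold in both populations, and calls near the mark changed with the processing. Over all genes 5.10% were at least 2-fold higher in double-positive cells and 6.15% in tdTomato-only cells. The Slc30 family exports zinc from the cytosol to vesicles or out of the cell. In double-positive cells 1 of 7 measured members was at least 2-fold higher and none 2-fold lower, with a median log2 ratio of 0.74 (0.25 to 0.85 across settings), beside −0.01 over all genes. In tdTomato-only cells the count was also 1 of 7, or none in another setting, and the median 0.54 (0.10 to 0.65). The member past 2-fold was Slc30a2, which loads zinc into vesicles, at 1.85 in double-positive and 1.16 in tdTomato-only cells, and −0.68 between them. Slc30a5 had 0.81 and 0.60, and Slc30a7 0.80 and 0.76. Slc30a1, the zinc exporter of the plasma membrane that MTF1 also switches on, had −0.11 and −0.01. Slc30a10 was above background in both Cy3 channels and in neither EGFP-only channel.

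The Slc39 family brings zinc into the cytosol. Of 12 measured members 3 were at least 2-fold higher in double-positive cells (5.10% of all genes) and 2 in tdTomato-only cells (6.15% of all genes). None was 2-fold lower, and the medians were 0.55 and 0.21. Across the 7 settings these counts ran from 0 to 5 and from 0 to 2, and the second median reached −0.04. Slc39a11 had 1.39 and 1.13 (down to 0.87 and 0.65), and Slc39a7, the zinc channel of the endoplasmic reticulum, had 1.26 and 1.28 (down to 0.60 and 0.68). Slc39a8 was at 1.01 in double-positive cells (0.56 to 1.19 across settings) and 0.35 in tdTomato-only cells. Slc39a4, the zinc importer of the enterocyte surface, had 0.55 and 0.74. Between tdTomato-only and double-positive cells no Slc30 or Slc39 gene was past 2-fold, and the lowest were Slc30a2 and Slc39a8 (−0.66). The probe of Mtf1, which encodes the metal sensor itself, was not above background in any channel.

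Copper and iron genes mostly stayed within 2-fold. Of all genes 0.340% in double-positive and 1.19% in tdTomato-only cells, or 40 and 135, were at least 2-fold lower. With median centring these counts became 740 and 850. Of 11 measured copper genes none was past 2-fold in double-positive cells, nor were any of 10 in tdTomato-only cells. In other settings up to 2 and up to 1 of these copper genes were 2-fold lower. The values farthest from 0 in double-positive cells were those of the copper chaperone Cox17 (0.92), the superoxide dismutase Sod1 (−0.62, down to −1.02) and Ccs, the copper chaperone of Sod1 (−0.58, down to −1.12). In tdTomato-only cells they were those of Cox17 (0.92), the metalloreductase Steap2 (−0.76, and past 2-fold in another setting) and Sod1 (−0.56). Of 16 measured iron genes 2 were at least 2-fold higher in each population, beside 5.10% of all genes in double-positive and 6.15% in tdTomato-only cells. The 2 iron genes were the transferrin receptor 2 gene Tfr2 (3.46 in double-positive and 3.22 in tdTomato-only cells) and the haem and folate transporter gene Slc46a1 (1.02 and 1.05). Slc46a1 went down to 0.71 and 0.76 in another setting, which left 1 gene in each population. The medians, 0.12 and 0.14, turned to −0.27 and −0.30 in other settings. No measured copper or iron gene was past 2-fold between tdTomato-only and double-positive cells. Among genes without a ratio, Steap4 was above background in double-positive cells only, and Cybrd1 in both Cy3 channels only. Cp and Hamp were above background in no channel.

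Genes of the other signals known to switch on metallothioneins mostly stayed within 2-fold, and few genes of each list passed it. Of all genes 5.10% were at least 2-fold higher in double-positive and 6.15% in tdTomato-only cells. At least 2-fold lower were 0.340% and 1.19%, or 40 and 135 genes, which became 740 and 850 with median centring. Whether these signals were active was not tested. Of 18 measured antioxidant and Nrf2 target genes 1 was at least 2-fold higher in double-positive cells (5.10% of all genes), with a median of −0.03. None was 2-fold lower (0.340% of all genes), and up to 6 were in another setting. In tdTomato-only cells 2 of 18 were at least 2-fold higher (6.15% of all genes), or 2 to 3 across settings, with a median of −0.05. None was 2-fold lower there (1.19% of all genes), and up to 3 were in another setting. The higher one in double-positive cells was the haem oxygenase gene Hmox1, at 2.91 in these and 2.35 in tdTomato-only cells. Nfe2l2, which encodes Nrf2, was at −0.77 and −0.12. Slc7a11 had no ratio and was above background in double-positive cells only, and Gpx1 was above background in no channel. The glutathione transferase gene Gsta4 had the opposite order to Mt2, with 0.48 in double-positive and 3.04 in tdTomato-only cells, a difference of 2.56. Of 13 measured glucocorticoid response genes 2 passed 2-fold upward in double-positive cells (5.10% of all genes) and 11 stayed within it. In tdTomato-only cells 3 of 12 passed it upward (6.15% of all genes) and 9 stayed within it. Across settings the counts past 2-fold upward ran from 1 to 3 and from 2 to 3. The list medians were 0.22, which turned to −0.04 in another setting, and 0.34, beside −0.01 over all genes in each comparison. Cdkn1a (1.40 and 2.19), Errfi1 (1.10 and 1.46) and Dusp1 (0.95 and 1.21) were highest, each of them higher in tdTomato-only than in double-positive cells. The glucocorticoid receptor gene Nr3c1 had −0.50 and −0.54. Of 9 measured heat shock genes none was 2-fold higher in double-positive cells, and the list median was −0.14. The chaperone gene Hspa8 was 2-fold lower at −1.36, which made 1 of 9 beside 0.340% of all genes. Across settings 1 to 3 heat shock genes were 2-fold lower.

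**Figure D5:**
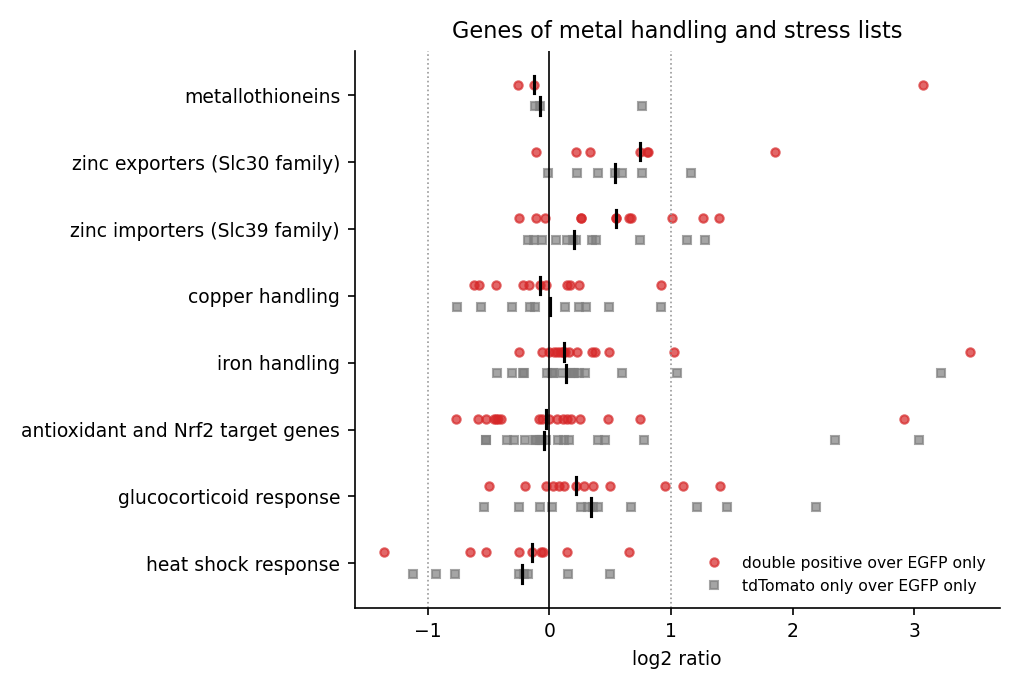
Log2 ratios over EGFP-only cells of each measured gene in the metal handling and stress lists, for double-positive (circles) and tdTomato-only cells (squares); black bars are list medians and dotted lines mark 2-fold. Mt2, at 3.07, stands apart from the other metallothioneins, and among the remaining genes Tfr2 reaches 3.46 and Hmox1 2.91.

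Markers of cell types moved between the same populations, and their part in the Mt2 values was not tested. In bulk samples, more cells of a type and more RNA per cell cannot be told apart. Lgr5 was at 0.26 in double-positive cells (−0.26 with median centring) and −0.89 in tdTomato-only cells. T cell and intraepithelial lymphocyte genes had the order of Mt2. Of 12 measured in each comparison, 11 were at least 2-fold higher in double-positive and 6 in tdTomato-only cells, with medians of 2.28 and 1.17. Over all genes 5.10% and 6.15% were at least 2-fold higher in these populations. Between tdTomato-only and double-positive cells all 12 lymphocyte genes were below 0, with a median of −0.96. Of them 6 were at least 2-fold lower (5 to 11 across settings), beside 0.274% of all genes. The granzyme gene Gzma (3.82 and 2.07) and the chemokine gene Ccl5 (3.41 and 1.85) are examples, and Cd7, among the 5 genes nearest to Mt2, is on this list. Their 15 probes summed over the blank level to 12977 in double-positive and 5642 in tdTomato-only cells, and to 1641 and 1568 in the EGFP-only channels. Cd3e was not above background in any channel, and Cd2 and Xcl1 in neither EGFP-only channel. Paneth cell genes were high in both Cy3 populations, at least 2-fold for 10 and 9 of 12, and all 12 probes were above background. Of these probes 4 were saturated in double-positive and 3 in tdTomato-only cells, so their values and the summed levels, at least 363646 and at least 347735, are lower bounds. The EGFP-only channels summed to 45184 and 47332. The 8 genes saturated in neither had medians of 4.12 and 4.07, and lay between −0.52 and 0.25 in the comparison of the populations with each other.

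The remaining lists differed between tdTomato-only and double-positive cells in other ways. Over all genes 0.813% were at least 2-fold higher in tdTomato-only cells in that comparison. Among goblet cell genes 8 of 16 were 2-fold or more above the double-positive level in tdTomato-only cells, among them Tpsg1 (2.39) and Zg16 (at least 2.40, saturated there), and 1 of 15 enterocyte genes was, Reg1 (1.14), with list medians of 0.97 and 0.32. Of 20 goblet cell probes 3 were saturated in tdTomato-only and 1 in double-positive cells. Enteroendocrine and tuft cell genes had medians of 0.61 and 0.12, with Cck at 1.09 and Avil at 0.68. Stem cell genes had a median of −0.55, with Slc12a2 (−1.18) and Lgr5 (−1.14) at least 2-fold lower, and proliferation genes one of −0.33, with Mcm4 at −0.79. The median was −0.32 over 7 myeloid and mast cell genes, of which Fcer1g, at −1.12, passed the 2-fold mark. Against EGFP-only cells the double-positive medians were −0.73 for enteroendocrine, −0.29 for tuft, −0.23 for stem cell and −0.52 for proliferation genes. That of myeloid and mast cell genes was 0.08.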

How the data were processed

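The authors deposited, per the file headers, the spot median intensity in both dyes for each array, with no background subtracted, judging from the blank spots. Normalized log2 ratios of the Cy3 over the EGFP-only population were deposited as well, per the labels. Subtracting the trimmed blank mean and centring the log2 ratio gave these within 0.02 for 99.99% of probes on each array, and their medians were 0.00. Intensities were corrected by normexp with an offset of 50 and loess within each array, controls at weight 0 (limma 3.58.1, R 4.3.3). A probe counted as above background past the mean plus 2 SD of 2736 blank spots, as 67.0% to 77.1% of probes were in each channel. The number of arrays limits the precision. Symbols were updated through RefSeq (GRCm38.p6), probes of a gene averaged, and no test was made with 1 array per comparison. The third comparison is the difference of the arrays. Alternatives were the deposited ratios, median centring, quantile normalization, blank subtraction, an offset of 16 and a limit of 5 SD. Members and all 17 gene lists were chosen with earlier results of these data known. Named were the members, up to 3 genes per list and comparison (up to 2 for cell type lists), the 5 genes nearest each member and 5 on each side of the cluster. The steps were tested on simulated arrays.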

Additional observations from a re-analysis of the deposited data

How the results depend on the processing

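The contrast between Mt1 and Mt2 in double-positive cells, 3.20 on the log2 scale, ran from 3.12 to 3.31 across the 7 settings. Mt2 in double-positive cells was at 2.65 in the deposited ratios, 2.20 with median centring, 2.90 after quantile normalization, 3.18 with the blank mean subtracted and 3.19 with an offset of 16. In tdTomato-only cells it was at 0.40, 0.10 and 0.52 in the first 3 of these settings and 0.86 with an offset of 16. Between tdTomato-only and double-positive cells it was at −2.09 with median centring. Mt1 was at −0.52, −0.93 and −0.41 in double-positive and −0.53, −0.81 and −0.37 in tdTomato-only cells in those first 3 settings, and at 0.03 in tdTomato-only cells with an offset of 16.

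The number of genes at least 2-fold apart, 641 in the double-positive comparison, was 1664 in the deposited ratios, 1104 after median centring and 1575 when the blank mean was subtracted. The 835 of the tdTomato-only comparison became 2037, 1257 and 1818, and the 123 between these populations became 308 in the deposited ratios and 369 when the blank mean was subtracted. The share of these genes that were higher, 93.8% and 83.8% in the first 2 comparisons, was 33.0% and 32.4% with median centring, 74.8% and 59.4% in the deposited ratios, 83.0% and 69.7% after quantile normalization, and 74.5% and 67.4% when the blank mean was subtracted. In the last comparison it was 74.8%, against 54.5% in the deposited ratios and 55.8% when the blank mean was subtracted. The cause was not tested. Of the 5 genes nearest to Mt2, 4 were kept with median centring, quantile normalization, an offset of 16 or a stricter limit, 1 in the deposited ratios and 0 when the blank mean was subtracted. Of 144 recomputed medians of metal and stress lists 60 moved by more than the technical spread. No paired analysis was possible because each population has 1 replicate and no result comes from a test.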

Other observations

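Neighbouring genes this far apart were uncommon on the double-positive array. Among 7284 pairs of neighbouring protein-coding genes with a ratio on that array, the median gap in log2 ratio was 0.34, and 71 pairs, or 0.975%, had a gap at least as large as the 3.20 between Mt2 and Mt1. This count was made after the values of both genes were seen and includes the pair itself. Mt2 was picked for its high value on that array, so a large gap to a neighbour follows from the choice. Both genes rest on 1 probe each, named by symbol alone in the platform's annotation. The probe sequences were not used here, so neither the identity of the probe called Mt2 nor cross-hybridisation was tested.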
